A study of Bos taurus with 96 samples.

Results

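The liver transcriptome of 16 Holstein cows in mid-lactation (ML, day 147 relative to parturition) was compared with that of the same cows in late pregnancy (LP, day -18). Every liver library labelled with either time-point was taken, which gave 32 of the 96 libraries of the study, 16 per time-point and 1 per cow and time-point. At each time-point 8 cows came from a group of very good (Fert+) and 8 from a group of very poor (Fert-) genetic merit for fertility, with like merit for milk production, and both groups were pooled here. According to the methods of the study, the cows were of first or later parity, were picked so that sires differed, were kept together, and were not bred in the sampled lactation, so that they carried a calf at LP and were lactating and not pregnant at ML. Liver was taken by percutaneous puncture biopsy, and polyadenylated RNA was sequenced with the Illumina TruSeq v2 kit. The age of the animals is not given in the sources used here. Anything else that differed between the dates of the biopsies, such as season or feed, cannot be told apart from the stage in these data. The 16 liver libraries of early lactation (EL), taken about parturition, are given as values only, and the 32 muscle libraries of the same cows and time-points were used to ask whether a change was the same in another tissue.

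Microbes of the rumen ferment most dietary carbohydrate before it can be absorbed, so a cow depends on hepatic gluconeogenesis for the glucose that the fetus and later the mammary gland take up. Around calving, fatty acids released from adipose tissue are oxidised or re-esterified in the liver, whereas in mid-lactation feed intake has caught up with milk output. The liver also synthesises plasma proteins, lipoproteins and bile acids, detoxifies ammonia to urea, inactivates steroid hormones and responds to inflammation with acute phase proteins.

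Each library held between 14966847 and 25254407 read pairs assigned to genes. Hepatocyte markers were abundant at both time-points, with the summed level of the 11 measured markers at 115872 to 225860.0 CPM (median 159533) at LP and 77504 to 216953 CPM (median 150570.0) at ML (CPM, counts scaled to a common library total). The 11 identifiers of skeletal muscle markers together did not exceed 0.654 CPM in any library, and the sum of the 3 identifiers of erythroid markers did not exceed 20.8 CPM. The library with the lowest median correlation to the others of its time-point was that of Fert- cow 426 at LP, at 0.956 against 0.965 to 0.980 in the other 15. A set of 13 of the 96 libraries, called batch B here, counted at least 11 of 19 genes of which the other libraries counted at most 3. In liver, 2 libraries at LP and 3 at ML, from 5 cows, were of this kind. The text says where a call was lost without these cows. Cows 33, 430, 756 and 3847 of this set were Fert+, and cow 829 was Fert-. Leaving them out therefore also shifts the balance of the fertility groups, which cannot be told apart from batch in that setting. These are biopsies of whole liver, in which fewer cells of a type and less RNA per cell cannot be told apart.

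Of 13100 genes tested, 3113 differed between ML and LP (23.8%; adjusted p under 0.05, edgeR quasi-likelihood test with each cow as a block), 1601 higher at ML (12.2%) and 1512 lower (11.5%). Most of the differences were small, with a median absolute log2 fold change of 0.40 among the genes that passed. Only 129 genes (0.985%) also differed by at least 2-fold, 54 of them higher at ML and 75 lower. Without the 5 cows that had a batch B library, the remaining 11 cows gave 1222 genes, of which 38.0% were higher at ML in place of 51.4%, and 1185 of the 1222 were among the 3113, all with the same sign. With batch as a term in the fit of all 16 cows, 3022 genes passed and 51.3% of them were higher at ML. Symbols were known for 1750 of the genes tested and for 435 of those that passed, and 24.9% of the genes with a symbol passed against 23.6% of those without. The LP and ML libraries did not overlap for 2 genes (0.0153%), neither with a symbol. The plot of all genes tested shows that the largest changes were decreases.

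**Figure D1:**
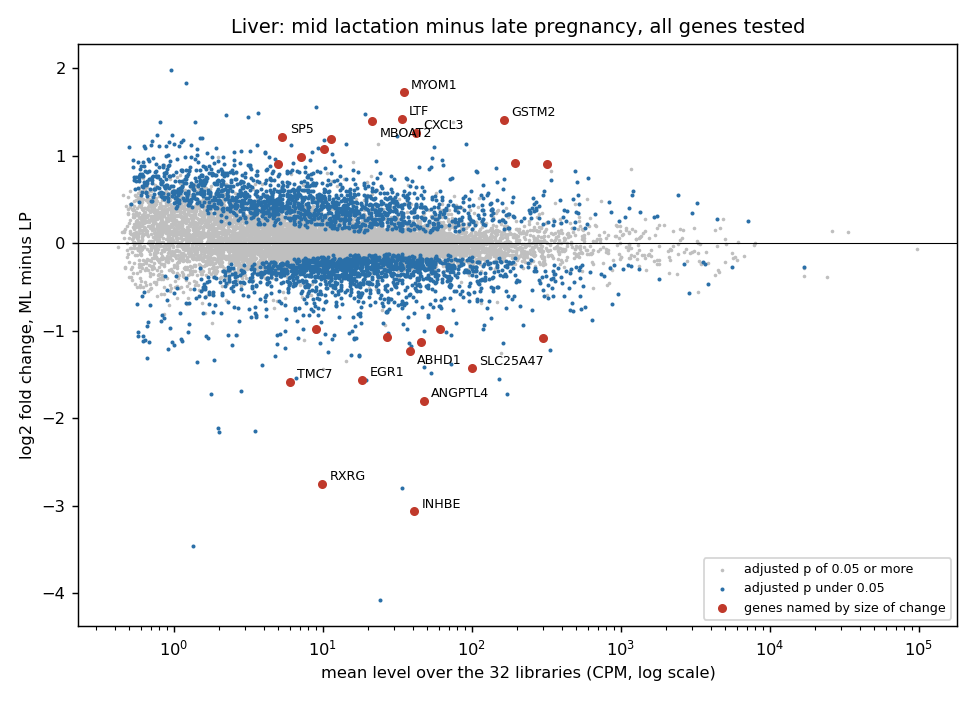
Log2 fold change (ML minus LP, vertical axis) against the mean level over the 32 libraries (CPM, log scale, horizontal axis) for the 13100 genes tested, with the 3113 that passed in blue and the 24 genes named by the size of their change in red. The decreases of INHBE (-3.07) and RXRG (-2.75) exceeded in size any increase of a named gene, the largest of which was that of MYOM1 (1.72).

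The gene with a symbol that fell most was INHBE (ENSBTAG00000006599), which encodes the inhibin beta E chain, a secreted protein of the transforming growth factor beta family made mainly by the liver. It ranged from 9.78 to 171 CPM with a median of 68.8 at LP and from 1.73 to 16.5 CPM with a median of 8.39 at ML (log2 fold change -3.07 ± 0.28, adjusted p = 7.43e-06). It was lower at ML in each of the 16 cows, and 1 LP library (cow 426) lay within the range of the ML libraries. RXRG (ENSBTAG00000016801), the gamma form of the retinoid X receptor that pairs with other nuclear receptors, ranged from 2.60 to 38.4 CPM with a median of 14.4 at LP and from 0.18 to 16.3 CPM with a median of 1.65 at ML (log2 fold change -2.75 ± 0.48, adjusted p = 0.00106). The groups overlapped, and RXRG was lower at ML in 14 of 16 cows. ANGPTL4 (ENSBTAG00000002473), a secreted inhibitor of lipoprotein lipase, ranged from 11.9 to 180.5 CPM with a median of 70.5 at LP and from 8.03 to 128 CPM with a median of 13.3 at ML (log2 fold change -1.80 ± 0.38, adjusted p = 0.00314). Most ML libraries were near their median, while cow 996 reached 128 CPM at ML, higher than all LP libraries but 3. TMC7 (ENSBTAG00000016505) ranged from 4.70 to 16.8 CPM with a median of 8.30 at LP and from 1.58 to 7.61 CPM with a median of 2.60 at ML (log2 fold change -1.59 ± 0.15, adjusted p = 7.43e-06), and was lower at ML in 15 of 16 cows.

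EGR1 (ENSBTAG00000010069), an immediate-early transcription factor, ranged from 6.80 to 48.8 CPM with a median of 23.9 at LP and from 3.37 to 71.6 CPM with a median of 7.38 at ML (log2 fold change -1.56 ± 0.31, adjusted p = 0.00214). It was lower at ML in 15 cows, and its highest level at either time-point was that of the remaining cow, 3434, at ML. SLC25A47 (ENSBTAG00000008384), a mitochondrial carrier found mainly in liver, ranged from 65.1 to 225 CPM with a median of 145 at LP and from 24.7 to 181 CPM with a median of 48.9 at ML (log2 fold change -1.43 ± 0.23, adjusted p = 0.000507). Among genes of the secretory pathway, SORT1 (ENSBTAG00000008849), the sorting receptor sortilin, ranged from 37.7 to 90.6 CPM with a median of 60.7 at LP and from 14.2 to 71.3 CPM with a median of 28.8 at ML (log2 fold change -1.13 ± 0.12, adjusted p = 2.04e-05), and it was lower at ML in every cow. SEC24D (ENSBTAG00000003619), a subunit of the COPII coat of vesicles that leave the endoplasmic reticulum, had medians of 76.0 CPM at LP and 36.2 CPM at ML (log2 fold change -0.98 ± 0.17, adjusted p = 0.00101). The Golgi GTPase gene RAB30 (ENSBTAG00000002417) had medians of 11.6 and 5.50 CPM (log2 fold change -0.98 ± 0.14, adjusted p = 0.000314). The other genes in this group were ABHD1 (ENSBTAG00000007077), a member of the alpha/beta hydrolase family with medians of 54.9 CPM at LP and 19.4 CPM at ML (log2 fold change -1.23 ± 0.19, adjusted p = 0.000418), and the metabolic genes ELOVL5 and LDHA, which are described with their pathways.

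The gene with a symbol that rose most was MYOM1 (ENSBTAG00000019585), which encodes myomesin, a structural protein of the M-band of striated muscle. It ranged from 5.95 to 54.0 CPM with a median of 8.83 at LP and from 13.2 to 225 CPM with a median of 32.7 at ML (log2 fold change 1.72 ± 0.16, adjusted p = 7.43e-06). It was higher at ML in all 16 cows although the groups overlapped, and the defining markers of skeletal muscle given above were at or near 0 in the same libraries. LTF (ENSBTAG00000001292), the iron-binding lactoferrin of milk and neutrophil granules, ranged from 5.89 to 35.8 CPM with a median of 14.9 at LP and from 10.9 to 167 CPM with a median of 37.0 at ML (log2 fold change 1.42 ± 0.15, adjusted p = 2.38e-05), and was also higher at ML in all 16 cows. The other neutrophil markers that passed the filter on low counts did not follow it: S100A8, S100A9 and S100A12 had log2 fold changes of -0.06, -0.18 and 0.19, with adjusted p between 0.575 and 0.894. CXCL3 (ENSBTAG00000037778), a chemokine that attracts neutrophils, ranged from 5.44 to 175 CPM with a median of 18.8 at LP and from 28.5 to 127 CPM with a median of 42.5 at ML (log2 fold change 1.26 ± 0.32, adjusted p = 0.00958). Its highest level was in an LP library, and its adjusted p was 0.183 without the replicate block and 0.107 without the cows of batch B.

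Among genes of conjugation and transport, GSTM2 (ENSBTAG00000016472), a glutathione S-transferase of the mu class, ranged from 25.8 to 218 CPM with a median of 72.4 at LP and from 111 to 462 CPM with a median of 217 at ML (log2 fold change 1.41 ± 0.23, adjusted p = 0.000631). GSTM4 (ENSBTAG00000037673) of the same class ranged from 94.0 to 397 CPM with a median of 215 at LP and from 186 to 672 CPM with a median of 409 at ML (log2 fold change 0.90 ± 0.15, adjusted p = 0.000571). Genes of this class are near-identical copies, so that counts can be shared between them in part. SULT1E1 (ENSBTAG00000011952), the sulfotransferase that inactivates oestrogens, ranged from 0.718 to 17.4 CPM with a median of 3.95 at LP and from 2.17 to 81.6 CPM with a median of 9.02 at ML (log2 fold change 1.07 ± 0.29, adjusted p = 0.0126), and its highest ML level was that of cow 426. SLC13A2 (ENSBTAG00000008788), a transporter of dicarboxylates and citrate, had medians of 6.06 and 14.7 CPM (log2 fold change 1.19 ± 0.14, adjusted p = 4.08e-05) and was higher at ML in all 16 cows. MBOAT2 (ENSBTAG00000008160), an acyltransferase of membrane phospholipids, had medians of 11.6 and 22.6 CPM (log2 fold change 1.39 ± 0.29, adjusted p = 0.00277). The transcription factor gene SP5 (ENSBTAG00000003207), a target of Wnt signalling, had medians of 2.31 and 7.14 CPM (log2 fold change 1.22 ± 0.18, adjusted p = 0.000364). At lower size of change, the phosphatase gene DUSP26 (ENSBTAG00000016413) rose from a median of 5.46 to 8.97 CPM (0.99 ± 0.16, adjusted p = 0.000423) and the scaffold protein gene USH1C (ENSBTAG00000000986) from 2.80 to 5.46 CPM (0.90 ± 0.25, adjusted p = 0.0155). The adjusted p of USH1C was 0.193 without the replicate block and 0.136 without the cows of batch B.

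**Figure D2:**
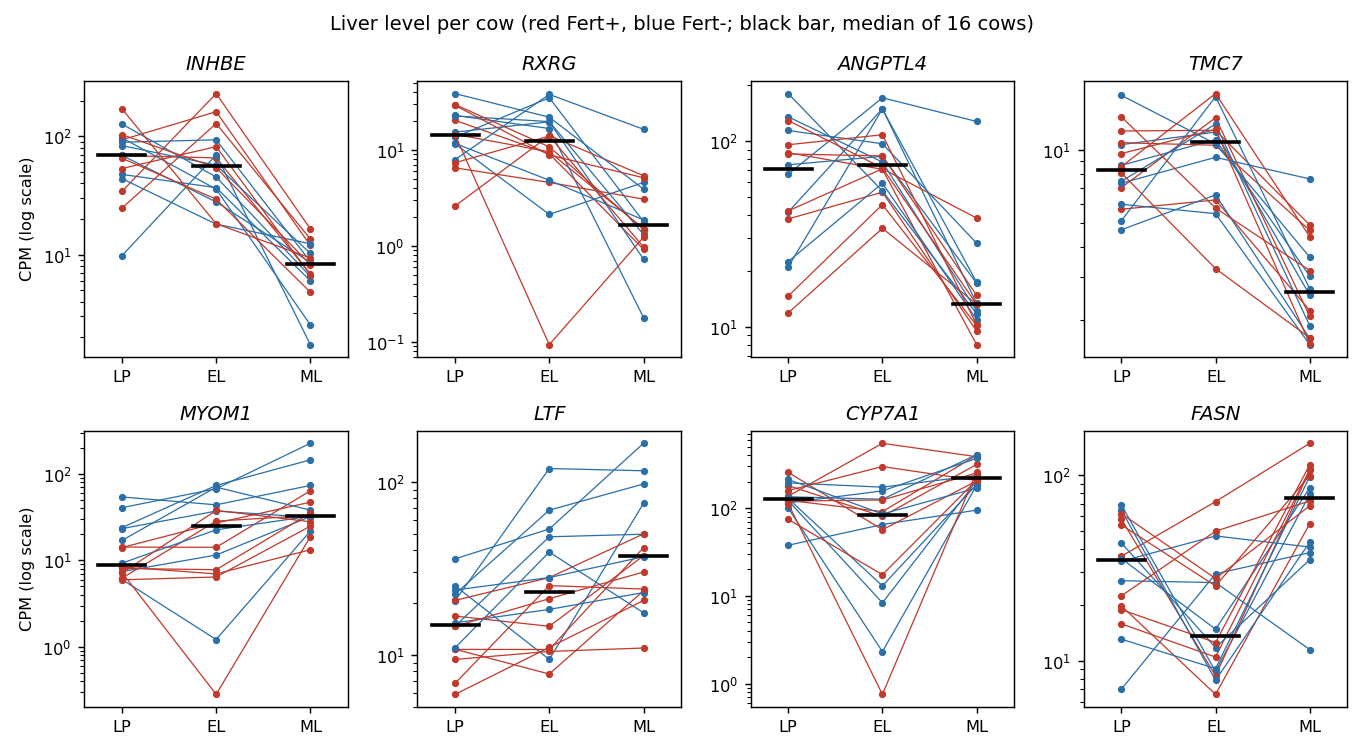
Level in liver (CPM, log scale) of 8 genes at LP, EL and ML, with 1 line per cow (Fert+ in red, Fert- in blue) and black bars at the median of the 16 cows. The median of INHBE was 68.8 CPM at LP, 55.6 at EL and 8.39 at ML, whereas FASN and CYP7A1 were lowest at EL.

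The 24 genes named so far did not change alike in every cow. In Fert- cow 996, 8 of the 24 genes moved against the direction of the mean, among them RXRG, ANGPTL4, LDHA and SLC25A47. In Fert+ cows 430 and 756 there were 5 and 4 such genes, and in the other 13 cows between 0 and 2. When each cow was left out in turn, each of the 24 genes still passed in all 16 fits, and no log2 fold change moved by more than 1.5 times.

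**Figure D3:**
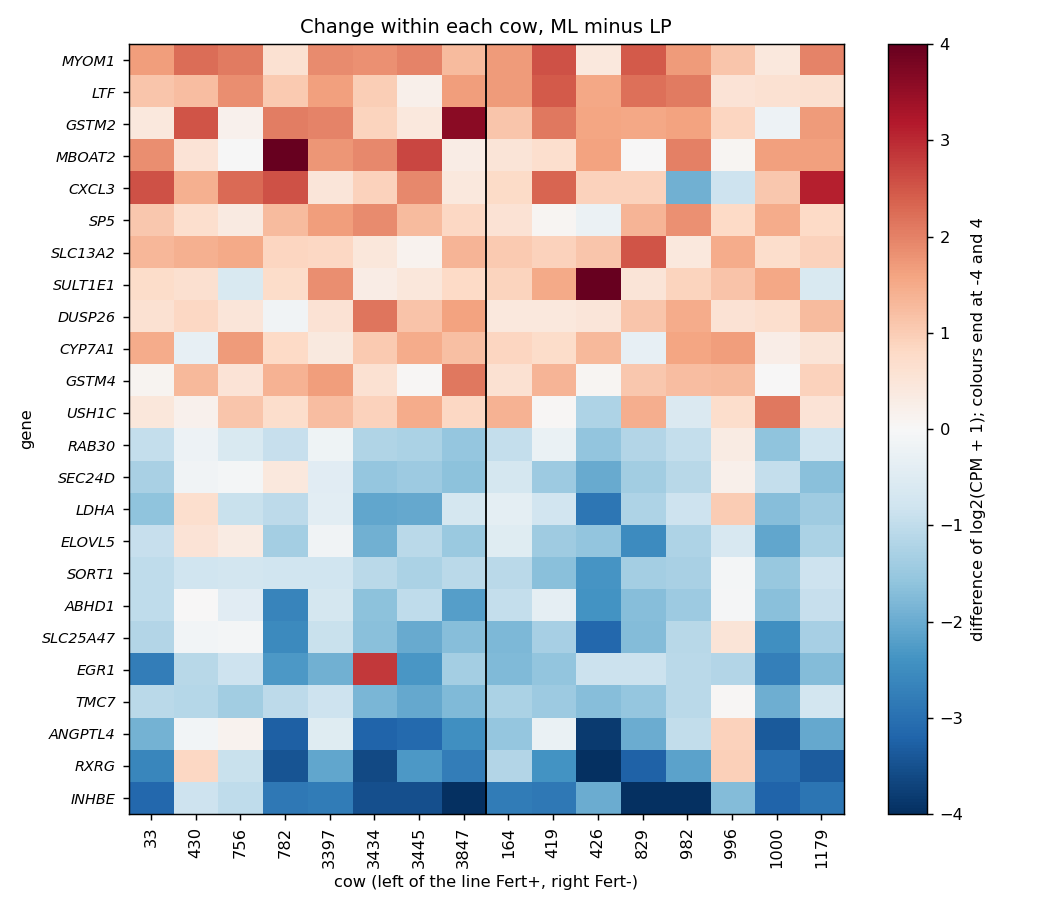
Difference in log2(CPM + 1) between ML and LP within each cow (columns, Fert+ left of the line and Fert- right of it) for the 24 named genes (lines of the grid), with increases in red and decreases in blue. INHBE is blue in all 16 columns and MYOM1 red in all 16, while cow 996 has the opposite colour or a pale one for several of the genes that fell.

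Only list members with a known symbol could be measured, so each gene list was seen in part. Symbols were paired for 10 of 19 genes of fatty acid and triglyceride synthesis and 8 of 23 of cholesterol synthesis and uptake. They were paired for 6 of 27 interferon-stimulated genes and 1 of 18 hormone-related genes. Of the 10 measured genes of fatty acid and triglyceride synthesis, 4 rose and 1 fell, where 12.2% and 11.5% of all genes did. The median log2 fold change of the list was 0.81 against 0.00139 over all genes tested. The 4 that rose each had their lowest median at EL. FASN, the fatty acid synthase, ranged from 7.01 to 69.0 CPM with a median of 34.9 at LP and from 11.5 to 148 CPM with a median of 75.6 at ML (log2 fold change 1.10 ± 0.30, adjusted p = 0.0146). It was higher at ML in 13 of 16 cows, with wide overlap between the groups. ACSS2, which activates acetate, the main carbon source of ruminant lipogenesis, had medians of 43.6 and 73.9 CPM (log2 fold change 0.95 ± 0.31, adjusted p = 0.0325). THRSP, a regulator of lipogenesis, had medians of 5.91 and 13.0 CPM (log2 fold change 0.93 ± 0.30, adjusted p = 0.0304), and ACACA, the acetyl-CoA carboxylase that makes malonyl-CoA, 27.0 and 46.5 CPM (log2 fold change 0.64 ± 0.20, adjusted p = 0.0307). The stearoyl-CoA desaturase SCD (1.38 ± 0.51, adjusted p = 0.0606) and the fatty acid desaturase FADS2 (0.84 ± 0.32, adjusted p = 0.0606) were on the same side and did not pass. ELOVL5, the elongase of polyunsaturated fatty acids (ENSBTAG00000003359), went the other way and fell from 138 to 734 (median 436) CPM at LP to 74.1 to 315 (median 186) CPM at ML (-1.09 ± 0.19, adjusted p = 0.00105). The calls of ACSS2, THRSP and ACACA were near the threshold, as leaving out any one of 6, 8 and 9 cows respectively raised their adjusted p to between 0.0503 and 0.0728. None of the 4 increases passed in the 11 cows without a batch B library, where the list median was 0.997, whereas 5 genes of the list rose with batch as a term. In Fert+ cows alone the list median was 1.05, with 2 genes higher and 0 lower. In Fert- cows alone it was 0.34, with 0 higher and 1 lower, a difference of the list that was not tested.

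Of 13 genes on the list of fatty acid oxidation and ketogenesis none rose and 4 fell, where 23.8% of all genes tested passed and 11.5% fell (list median -0.13). ACSL1, which activates long-chain fatty acids, ranged from 359 to 1683 CPM with a median of 806 at LP and from 251 to 963 CPM with a median of 405 at ML (log2 fold change -0.88 ± 0.13, adjusted p = 0.000314), and was lower at ML in 15 of 16 cows. The genes of both subunits of the mitochondrial trifunctional protein also fell, HADHA by 0.38 ± 0.11 on the log2 scale (adjusted p = 0.0143) and HADHB by 0.32 ± 0.083 (adjusted p = 0.0107, and 0.0646 without the cows of batch B). The remaining decrease was that of ANGPTL4, the lipase inhibitor described above, which is not itself an enzyme of oxidation or ketogenesis. The very long-chain acyl-CoA dehydrogenase ACADVL (-0.32 ± 0.12, adjusted p = 0.0527) and the kinase PDK4 that inhibits pyruvate dehydrogenase (-0.22 ± 0.22, adjusted p = 0.497) did not pass.

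Of 13 lipoprotein genes none rose and 6 fell, against 11.5% of all genes tested (list median -0.27). APOA4, an apolipoprotein of triglyceride-rich particles, ranged from 16.9 to 692 CPM with a median of 252 at LP and from 22.2 to 425 CPM with a median of 48.1 at ML (log2 fold change -1.73 ± 0.47, adjusted p = 0.0143). The ML levels lay mostly at the low end of the LP range, and 13 of 16 cows were lower at ML. APOA5, which promotes triglyceride clearance, had medians of 599 and 337 CPM (log2 fold change -0.69 ± 0.14, adjusted p = 0.00197), and APOA1, the main protein of high-density lipoprotein, 284 and 169 CPM (log2 fold change -0.76 ± 0.23, adjusted p = 0.0238, and adjusted p = 0.0532 without cow 426). APOH (-0.47 ± 0.084, adjusted p = 0.00101), the cholesterol-esterifying enzyme LCAT (-0.40 ± 0.074, adjusted p = 0.00128) and the paraoxonase PON1 (-0.27 ± 0.077, adjusted p = 0.0171) fell by less. Among those that did not pass, APOB, the structural protein of very low-density lipoprotein, had a log2 fold change of -0.19 ± 0.093, adjusted p = 0.137. In the 11 cows without a batch B library 6 of the 13 genes were also lower.

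None of the 8 measured genes of cholesterol synthesis and uptake passed, with a list median of 0.23. Among them DHCR7, an enzyme of the last steps of the synthesis, was at 0.34 ± 0.20, adjusted p = 0.228. Of 5 measured genes from a list of 18 for bile acid synthesis and transport, 2 rose, where 12.2% of all genes did. CYP7A1 (ENSBTAG00000005287), the rate-limiting enzyme of bile acid synthesis, ranged from 37.7 to 255 CPM with a median of 125 at LP and from 94.8 to 407 CPM with a median of 222 at ML (log2 fold change 0.92 ± 0.15, adjusted p = 0.000675). The ranges overlapped, and 14 of 16 cows were higher at ML. With all 48 liver libraries in 1 fit, CYP7A1 was at 0.88 with an adjusted p of 0.137 and did not pass. CYP27A1, of the alternative pathway, had medians of 373 and 423 CPM (log2 fold change 0.22 ± 0.069, adjusted p = 0.0238, and adjusted p = 0.0565 without cow 3397 and 0.167 without the cows of batch B). CYP8B1 (-0.06 ± 0.069, adjusted p = 0.551) and the bile acid transporter gene SLC10A1 (0.12 ± 0.085, adjusted p = 0.311) did not pass.

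Of 13 genes of gluconeogenesis none rose and 4 fell, where 23.8% of all genes passed and 11.5% fell, and the list median was -0.05. LDHA (ENSBTAG00000008683), a subunit of lactate dehydrogenase, ranged from 15.6 to 77.7 CPM with a median of 34.4 at LP and from 9.66 to 32.8 CPM with a median of 16.1 at ML (log2 fold change -1.07 ± 0.24, adjusted p = 0.00451). SLC16A1, a carrier of lactate, ranged from 21.5 to 58.9 CPM with a median of 33.3 at LP and from 17.1 to 31.7 CPM with a median of 21.1 at ML (log2 fold change -0.68 ± 0.11, adjusted p = 0.000672), and PC, the pyruvate carboxylase, from 254 to 2789 CPM with a median of 500.3 at LP and from 154 to 844 CPM with a median of 282 at ML (log2 fold change -0.76 ± 0.24, adjusted p = 0.0263). All of these were lower at ML in 14 of 16 cows, with overlap between the groups, and PC was at -0.86 with an adjusted p of 0.109 without the cows of batch B. The fructose-bisphosphatase gene FBP1 had medians of 516 and 329.5 CPM (log2 fold change -0.51 ± 0.13, adjusted p = 0.0102). LDHB, the gene of the other subunit of lactate dehydrogenase, had medians of 301 CPM at LP and 244 CPM at ML. It did not pass (log2 fold change -0.21 ± 0.16, adjusted p = 0.365), so the decrease of LDHA covers 1 subunit only. Among the 9 genes that did not pass, MUT, the methylmalonyl-CoA mutase, was at 0.10 ± 0.070, adjusted p = 0.33, PCK1, the cytosolic phosphoenolpyruvate carboxykinase, at -0.21 ± 0.15, adjusted p = 0.329, and the glucose-6-phosphatase gene G6PC at 0.10 ± 0.15, adjusted p = 0.673.

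Of 10 genes of the urea cycle and amino acid breakdown 7 rose, against 12.2% of all genes tested, and none fell, and the list median was 0.28. ARG1, the arginase that releases urea, ranged from 206 to 1416 CPM with a median of 355 at LP and from 326 to 864 CPM with a median of 587 at ML (log2 fold change 0.70 ± 0.16, adjusted p = 0.00541). It was higher at ML in 15 of 16 cows, and the highest level was nevertheless that of an LP library. TDO2, the tryptophan dioxygenase, ranged from 171 to 429 CPM with a median of 212 at LP and from 179.8 to 457 CPM with a median of 324 at ML (log2 fold change 0.42 ± 0.10, adjusted p = 0.00628). Increases below 0.40 on the log2 scale were those of GLUD1 (0.36 ± 0.13, adjusted p = 0.0475), ASS1 (0.30 ± 0.10, adjusted p = 0.0342), CPS1 (0.27 ± 0.093, adjusted p = 0.0404), the gateway enzyme of the urea cycle, and OTC (0.24 ± 0.084, adjusted p = 0.0436). These 4 lost their call when any one of 10 or 11 of the cows was left out, with adjusted p up to 0.0954. In the 11 cows without a batch B library 2 of the 10 genes passed, ARG1 no longer being one of them (adjusted p = 0.0593), and with batch as a term 6 did.

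Of 17 identifiers of steroid and xenobiotic metabolism 3 rose and 3 fell, near the shares of all genes tested (12.2% and 11.5%). Those that fell were the dioxin-inducible CYP1A1, from 376 to 2182 (median 1009) CPM at LP to 358 to 881 (median 649.8) CPM at ML (-0.70 ± 0.10, adjusted p = 0.000314), CYP1A2, from 1737 to 6050.0 (median 3251) to 1565 to 3324 (median 2303) CPM (-0.57 ± 0.084, adjusted p = 0.000314), and the glucuronosyltransferase UGT1A6 (-0.29 ± 0.067, adjusted p = 0.00474, and 0.0672 without the cows of batch B). Both CYP1A genes were lower at ML in all 16 cows. With all 48 liver libraries in 1 fit, CYP1A1 did not pass (adjusted p = 0.112). Besides SULT1E1, HSD11B1, which regenerates active cortisol in the liver, rose (0.34 ± 0.076, adjusted p = 0.00442), as did FMO1 (0.25 ± 0.087, adjusted p = 0.0402), which lost its call when any one of 12 cows was left out. Among hormone-related genes, DIO1, the deiodinase that activates thyroxine, ranged from 36.0 to 127 CPM with a median of 69.8 at LP and from 22.9 to 85.7 CPM with a median of 46.5 at ML (log2 fold change -0.72 ± 0.17, adjusted p = 0.00535), and its adjusted p was 0.110 without the cows of batch B.

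Of 8 measured genes from a list of 19 for the somatotropic axis, 2 rose and 1 fell, where 23.8% of all genes tested passed. The decrease was that of FGFR4, a receptor of another signal, and none of the other members was called lower. SOCS2, a growth hormone target that dampens its receptor, ranged from 15.9 to 91.3 CPM with a median of 36.9 at LP and from 24.7 to 103 CPM with a median of 60.0 at ML (log2 fold change 0.85 ± 0.19, adjusted p = 0.00391). The binding protein gene IGFBP2 had medians of 921 and 1471 CPM (log2 fold change 0.60 ± 0.18, adjusted p = 0.0199, and adjusted p = 0.195 without the cows of batch B), and FGFR4, the receptor of the bile acid signal FGF19, 33.7 and 26.1 CPM (log2 fold change -0.41 ± 0.075, adjusted p = 0.00129). IGF1, the main effector of growth hormone, named IGF-I in the gene table, did not pass. It ranged from 1.63 to 32.5 CPM with a median of 15.7 at LP and from 2.56 to 30.1 CPM with a median of 12.8 at ML (-0.18 ± 0.28, adjusted p = 0.679), with a median of 4.83 CPM at EL. IGFBP1 varied over 2 orders of magnitude at LP, from 20.04 to 2544 CPM (median 166), and from 32.8 to 1032 (median 317) CPM at ML (0.82 ± 0.48, adjusted p = 0.231).

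Of 13 genes of the unfolded protein and amino acid response 6 fell, against 11.5% of all genes tested, none rose and 7 did not pass (list median -0.31). GRP78 (HSPA5), the main chaperone of the endoplasmic reticulum, ranged from 279.7 to 958 CPM with a median of 584 at LP and from 175 to 1246 CPM with a median of 317 at ML (log2 fold change -0.77 ± 0.21, adjusted p = 0.0126). XBP1, a transcription factor of the response, ranged from 151 to 438 CPM with a median of 236 at LP and from 90.1 to 335 CPM with a median of 148 at ML (log2 fold change -0.72 ± 0.16, adjusted p = 0.00355). Both genes were lower at ML in 13 of 16 cows, and the ranges overlapped. With all 48 liver libraries in 1 fit, GRP78 (adjusted p = 0.0805) and XBP1 (0.0548) did not pass. The secreted factors CRELD2 (-0.95 ± 0.24, adjusted p = 0.00825) and MANF (-0.70 ± 0.23, adjusted p = 0.0365) fell, as did ATF4, the transcription factor of the amino acid response (-0.44 ± 0.084, adjusted p = 0.00143), and its target ASNS, the asparagine synthetase (-0.73 ± 0.18, adjusted p = 0.00675). The call of MANF was lost when any one of 8 cows was left out (adjusted p up to 0.0711). Without the cows of batch B, 4 of the 13 genes were lower, and MANF (adjusted p = 0.0638) and ASNS (0.0720) did not pass. All 6 genes that fell had their highest median at EL, for instance GRP78 at 701 CPM and XBP1 at 363 CPM.

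Of 18 positive acute phase proteins, which rise in inflammation, 1 fell and none rose, where 23.8% of all genes passed. That gene was LBP, the lipopolysaccharide-binding protein, which ranged from 174 to 1934 CPM with a median of 271 at LP and from 42.5 to 891 CPM with a median of 123 at ML (log2 fold change -1.22 ± 0.37, adjusted p = 0.0221). It was lower at ML in 13 of 16 cows, and it was at -1.25 with an adjusted p of 0.107 without the cows of batch B and at -1.10 with 0.0688 without the replicate block. Haptoglobin (HP) varied far more between cows than between time-points, from 54.5 to 41764 (median 596) CPM at LP and from 25.1 to 26343 (median 432) CPM at ML (-0.22 ± 0.96, adjusted p = 0.893). The serum amyloid genes SAA2 (-0.52 ± 0.71, adjusted p = 0.635) and SAA3 (0.38 ± 0.58, adjusted p = 0.669), which belong to a family of near-identical copies, and the fibrinogen gene FGB (-0.39 ± 0.22, adjusted p = 0.209) did not pass either. Of 7 negative acute phase and carrier proteins, transferrin (TF) fell (-0.27 ± 0.087, adjusted p = 0.029), a call that was lost when any one of 5 cows was left out and without the cows of batch B (adjusted p = 0.136), and albumin (ALB) was at -0.07 ± 0.14, adjusted p = 0.738.

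Of 12 identifiers of antigen presentation by the major histocompatibility complex (MHC) 9 rose, against 12.2% of all genes tested, and none fell, with a list median of 0.46. In Fert+ cows alone the median was 0.17 and none passed, and in Fert- cows alone it was 0.72 and 6 passed, a difference of the list that was not tested. The class II gene BOLA-DRA ranged from 141 to 333 CPM with a median of 239 at LP and from 196 to 685 CPM with a median of 337 at ML (log2 fold change 0.55 ± 0.15, adjusted p = 0.0144), and CD74, the invariant chain of class II molecules, from 268 to 621 CPM with a median of 419.7 at LP and from 385 to 1237 CPM with a median of 579 at ML (log2 fold change 0.45 ± 0.14, adjusted p = 0.0304). Both overlapped between the groups, BOLA-DRA being higher at ML in 14 cows and CD74 in 12. BOLA-DQA2 (0.83 ± 0.22, adjusted p = 0.0122) and BOLA-DQA5 (0.82 ± 0.21, adjusted p = 0.0107) had no counts in some cows at both time-points, and reads of these polymorphic and near-identical genes may be placed on another copy. The class I light chain B2M was at 0.27 ± 0.12, adjusted p = 0.11. None of the 9 increases passed in the 11 cows without a batch B library, where the list median was 0.42, 3 passed without the replicate block, and 8 passed with batch as a term. The call of CD74 was lost without any one of cows 419, 829, 1000 and 3847 (adjusted p up to 0.0629).

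Markers of cells other than hepatocytes were measured in the same libraries. Of the 6 measured macrophage markers 2 rose, C1QB (0.40 ± 0.13, adjusted p = 0.0273) and CD5L (0.45 ± 0.16, adjusted p = 0.0477), both of which lost their call when any one of 4 and 10 cows respectively was left out, and the summed level of the list was 531 to 1443 CPM (median 1069.6) at LP and 903 to 1822 CPM (median 1318) at ML. Only 1 of 13 listed T and NK cell markers was measured. This marker, GZMA, was at 0.543 to 3.87 (median 1.74) CPM at LP and rose to 0.924 to 6.77 (median 3.06) CPM at ML (0.95 ± 0.27, adjusted p = 0.0176). Without the cows of batch B, the adjusted p was 0.141 for C1QB, 0.171 for CD5L and 0.130 for GZMA, and none of these passed. None of the 3 B and plasma cell markers that were tested passed. Of 2 measured endothelial markers from a list of 11, TEK rose (0.60 ± 0.093, adjusted p = 0.000414) and VWF did not pass (0.47 ± 0.21, adjusted p = 0.104). Of 3 measured cholangiocyte markers from a list of 7, KRT19 (0.81 ± 0.15, adjusted p = 0.00131) and CFTR (0.84 ± 0.13, adjusted p = 0.000328) rose and EPCAM did not pass (0.08 ± 0.11, adjusted p = 0.669). Of 6 markers of stellate cells and fibroblasts 1 passed, the smooth muscle actin ACTA2, which fell from 26.6 to 211 (median 95.1) to 21.8 to 95.2 (median 44.1) CPM (-1.05 ± 0.26, adjusted p = 0.00865), while DCN and COL1A1 were at 0.18 and 0.60 without passing. The part of cell type shares in the MHC result was not tested.

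Of 20 cell cycle genes tested, TPX2, a spindle assembly factor, fell (-0.76 ± 0.19, adjusted p = 0.00732, and 0.0952 without the cows of batch B) and none rose. The highest sum of the list was 294 CPM in an LP library, against a median of 48.7 CPM at LP and 48.7 CPM at ML. Of 7 identifiers of interferon-stimulated genes 1 rose and 1 fell, namely 1 of 2 identifiers of BST2 (0.887 on the log2 scale, adjusted p = 0.000794, higher in 16 of 16 cows) and OAS1Y (-0.40 ± 0.13, adjusted p = 0.0331, lost without any one of 6 cows, and at 0.206 without the cows of batch B). Of 11 antioxidant genes the catalase gene CAT rose (0.25 ± 0.078, adjusted p = 0.0251, and 0.0526 without the cows of batch B) and the sulfiredoxin gene SRXN1 fell (-0.64 ± 0.14, adjusted p = 0.00372). None of the 3 measured circadian clock genes, from a list of 19, passed, with log2 fold changes between -0.17 and -0.05.

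**Figure D4:**
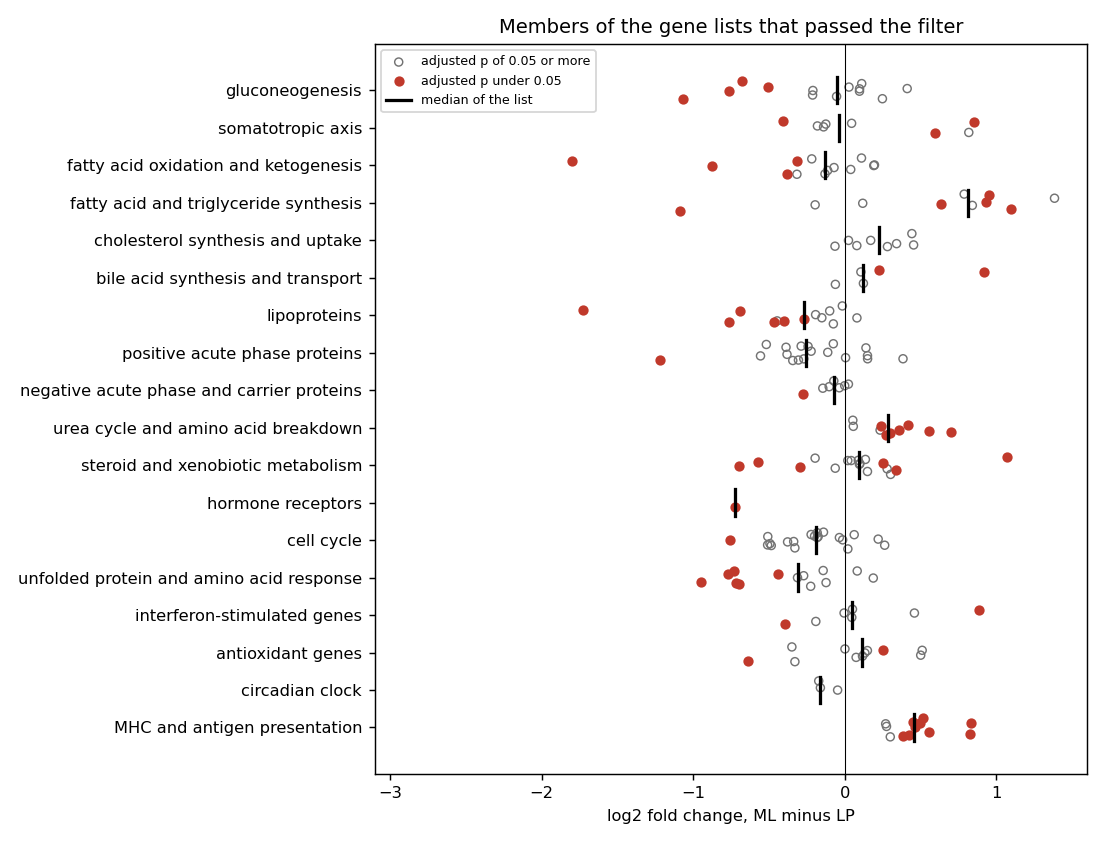
Log2 fold change (ML minus LP, horizontal axis) of each member of 18 gene lists (lines of the plot) that passed the filter on low counts, filled red where the adjusted p was under 0.05, with a black bar at the list median. Members of the urea cycle and MHC lists lie right of 0, and those of the unfolded protein list that passed lie left of it.

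Early lactation was not always between LP and ML. Of the 54 genes that were at least 2-fold higher at ML, 29 had an EL median between those of LP and ML, 25 had one below both and none had one above both. Of the 75 genes that were at least 2-fold lower at ML, the EL median was between in 35, above both in 35 and below both in 5. CYP7A1 had a median of 83.0 CPM at EL with a range of 0.752 to 548 CPM, below both other time-points, and FASN one of 13.6 CPM. GSTM2 fell in its median from 72.4 CPM at LP to 29.8 CPM at EL and was at 217 CPM at ML. LTF and MYOM1, at 23.1 and 24.7 CPM, lay between. The LBP median was 933 CPM at EL and that of ANGPTL4 74.5 CPM, above both. These are the values of the genes selected on LP and ML and were not tested against EL.

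The change from LP to ML was not found to differ between the fertility groups. With the edgeR quasi-likelihood test of the interaction, 0 of 13564 genes (0%) passed, 678 had an unadjusted p under 0.05, and the smallest adjusted p was 0.899. DESeq2 also called 0 genes, with 721 at an unadjusted p under 0.05. The genes with a symbol and the smallest p were RNF122 (log2 fold change -0.14 in Fert+ and 0.87 in Fert-), MTHFD2 (-0.10 and 0.82) and TUBA4A (0.21 and -0.35). In each group alone 402 (Fert+) and 819 (Fert-) genes passed, and each of the 3086 genes of the pooled call that were tested in both groups had the same sign in both, which the pooling in part fixes. INHBE was at -2.88 in Fert+ and -3.27 in Fert- cows and MYOM1 at 1.82 and 1.61. For FASN these values were 1.55 and 0.57, and for BOLA-DRA 0.20 and 0.89, with an interaction of -0.69 ± 0.27 for the latter (adjusted p = 0.899).

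In a fit of liver and muscle together, the change from LP to ML differed between the tissues for 2461 of 13963 genes (17.6%), 1041 of them with a larger log2 change in liver and 1420 with a smaller one. For 323 of these the muscle median was under 1 CPM at both time-points. Among the genes with a symbol and the 3 smallest p values were the plasma protein genes VTN and GC, whose liver log2 fold changes were -0.11 and -0.15, while their muscle medians went from 0 to 0.522 CPM and from 0.0271 to 0.471 CPM. The summed hepatocyte markers in the muscle libraries were 1.69 to 7.91 CPM at LP and 3.07 to 175 CPM at ML, and their part in this comparison was not tested. Of the 24 named genes 15 differed between the tissues, a count that their choice by large changes in the same liver libraries favours. For LTF and ABHD1, 2 of these, the muscle counts were too low for the fit of muscle alone. RXRG fell in liver and rose in muscle (0.61 ± 0.17, adjusted p = 0.0231; difference -3.35 ± 0.50, adjusted p = 1.79e-05). MYOM1 was at 0.13 ± 0.0595 in muscle, where it is a structural gene, with medians of 2528 CPM at LP and 2789 CPM at ML (difference between tissues 1.58, adjusted p = 8.89e-08). TMC7 fell in both tissues (-0.81 ± 0.19 in muscle, adjusted p = 0.00735), and by more in liver (difference -0.80, adjusted p = 0.0277). Among list members, SOCS2 rose in muscle too (0.97, adjusted p = 0.000135), whereas PC fell in liver and rose in muscle (0.70, adjusted p = 0.00064; difference -1.47, adjusted p = 0.000418).

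**Figure D5:**
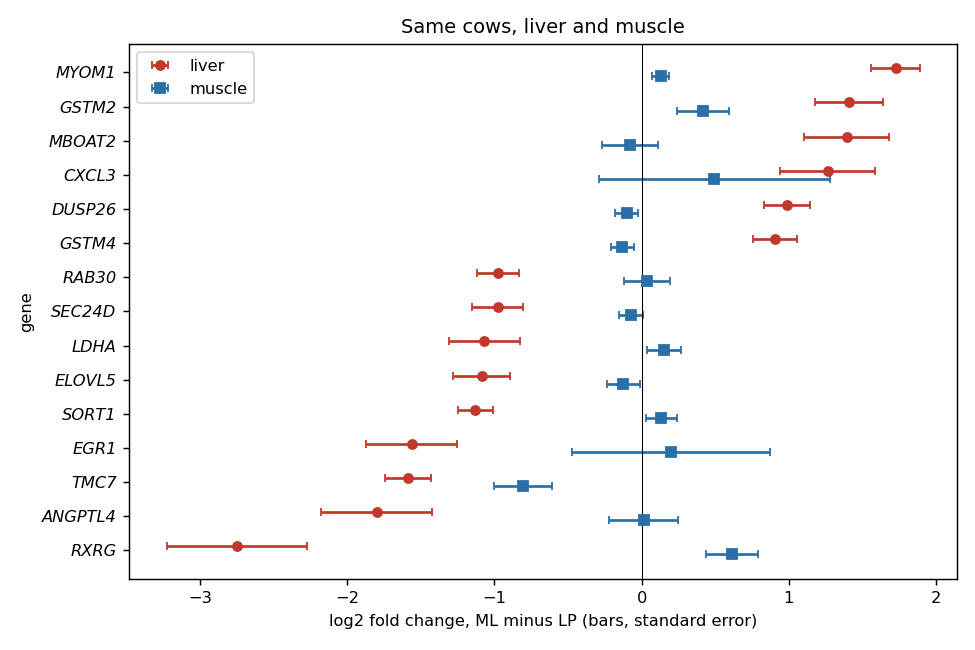
Log2 fold change (ML minus LP, horizontal axis, bars for the standard error) in liver (red circles) and muscle (blue squares) of the same 16 cows for the 15 named genes (vertical axis) that passed the filter on low counts in the fit of muscle. RXRG lies left of 0 in liver and right of 0 in muscle, and TMC7 left of 0 in both.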

How the data were processed

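Liver libraries of 16 cows at LP and ML were compared. The deposited values are raw counts of read pairs per gene, 1 file per library. The authors made them with CASAVA 1.8, Trimmomatic, STAR and featureCounts on genome build UMD3.1 with Ensembl70 genes. The library kit does not mark strand, so reads of overlapping genes on opposite strands cannot be told apart. Each library held 14966847 to 25254407 read pairs over 24616 genes, which limits the precision for genes of low level. A further 96 columns without sample names were not used. Symbols were known for 2160 identifiers, from lists of the study, which favours genes the study named. Among those, 12 symbols were matched through older names after the data were seen.

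The main test was the edgeR 4.0.16 quasi-likelihood test (R 4.3.3, robust estimation, TMM factors, filterByExpr) with cow and time-point as terms and Benjamini-Hochberg adjustment at 0.05. The replicate number in the labels is the cow, so the same animal gave both libraries of a pair. The correlation of the deviations of a pair had a median of 0.274 and was over 0.1 in 13 of 16 cows, against a median of -0.0649 for libraries of different cows. No 2 liver libraries of the same time-point and fertility group were alike within sampling noise, as the lowest chi-square per gene was 24.6 over 168 pairs. Pairs across the fertility groups were not compared. Printed CPM values use TMM factors over the 48 liver libraries and are not corrected for gene length, so levels are not compared between genes.

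Named genes were the 12 highest and 12 lowest log2 fold changes among genes with a symbol, an adjusted p under 0.05, a mean of at least 5 CPM and 1 direction in at least 14 of 16 cows. To these were added up to 6 members per list with the largest changes, members named as background, and the 3 smallest p values of each interaction. The members and lists were chosen with earlier results of these data known. Alternatives were other normalisation, filter, dispersion, test (DESeq2 1.42.0), sample and batch settings, and each cow left out. The paired fit of liver, with cow and time-point as terms, was tested on simulated data, and the other fits were not. Values of some single list members are not reported here, while the counts and medians of their lists include them.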

Additional observations from a re-analysis of the deposited data

Results flagged for a closer look

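In each fertility group of 8 cows, the change from LP to ML in log2(CPM + 1) was searched for a cow that stood apart from the others, over 48 groups, of which 2 held one. Chance gives about 1 in 20 such groups. The change of SULT1E1 was 4.22 in Fert- cow 426, against a group median of 1.03. The change of EGR1 was 2.82 in Fert+ cow 3434, against a group median of -1.63.

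The log2 change differed between liver and muscle of the same cows for 15 of the 24 genes named by the size of their change. The difference, liver minus muscle, was positive for MYOM1 (1.58), MBOAT2 (1.45), LTF (1.39), DUSP26 (1.07), GSTM4 (1.02) and GSTM2 (0.98). It was negative for RXRG (-3.35), ANGPTL4 (-1.83), SORT1 (-1.28), LDHA (-1.23), ABHD1 (-1.21), RAB30 (-1.03), ELOVL5 (-0.98), SEC24D (-0.92) and TMC7 (-0.80). The genes were chosen by large changes in the same liver libraries, which favours such differences. LTF and ABHD1 did not pass the filter on low counts in the fit of muscle alone, so their change in muscle is not given.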

How the results depend on the processing

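The count of 3113 genes stayed within 1.5 times without the replicate block (2544 genes, 2360 of them shared), with RLE factors (3129), without a gene filter (2865), without robust estimation (3119), with DESeq2 on all 19676 genes with a count (3571), with batch as a term (3022) and with a likelihood ratio test on a common dispersion (3025, of which 64% were higher at ML against 51.4%, and 2233 shared). It was 2065 with all 48 liver libraries in 1 fit, and 1222, 402 and 819 in the smaller sets of cows without a batch B library, of Fert+ cows and of Fert- cows. Leaving out each cow gave 2499 (cow 419) to 3392 (cow 996) genes. The 129 genes of at least 2-fold became 247 without a filter, 255 with DESeq2 and 62 in Fert+ cows, and 102 to 153 with each cow left out. The 70 list members that passed became 46 with 48 libraries, 36 without the cows of batch B, 16 in Fert+ and 26 in Fert- cows, and 58 to 76 with each cow left out. Of the 24 genes named by the size of their change 13 passed in Fert+ cows alone. All 24 passed with each cow left out, which the way they were chosen favours. No gene that passed turned its sign in any of these settings, where it was tested. The cause of the differences was not tested, other than that the smaller sets hold fewer cows. Batch as a term for the gene lists, and each cow left out for single genes, were chosen after seeing the data.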

Other observations

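Some of the largest changes were in identifiers for which no symbol was known, which are named here after their values were seen. At a mean of at least 5 CPM, ENSBTAG00000011624 fell by 4.07 and ENSBTAG00000047766 by 2.80 on the log2 scale, and ENSBTAG00000006343 and ENSBTAG00000021118 rose by 1.56 and 1.48, each in all 16 cows. Only 2 of the 13100 genes (0.0153%) had no overlap between the LP and ML libraries. ENSBTAG00000015618 ranged from 0.489 to 6.71 CPM at LP (median 1.70) and from 0.0560 to 0.455 CPM at ML (median 0.157). ENSBTAG00000047374 ranged from 0.0870 to 0.826 CPM at LP (median 0.399) and from 0.924 to 4.03 CPM at ML (median 1.47). Of the 3113 genes that passed, 123 moved in 1 direction in all 16 cows, 61 up and 62 down.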
